A study of Mus musculus with 12 samples.

Results

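RNA sequencing compared mouse embryonic fibroblasts (MEFs) in which codon 61 of both Nras alleles encodes histidine, TN 61H/H, with MEFs in which it encodes the wild-type glutamine, TN 61Q/Q. The comparison takes in all genes of 6 libraries, 3 of each genotype, out of 12 libraries in the series, and 15759 of the 24419 genes in the count table had enough counts to be tested. Both genotypes carry the Tyr::CreERT2 transgene, whose promoter is active in melanocytes, and an LSL-Nras allele, in which a removable stop cassette precedes the gene at its own locus. Both alleles were made by CRISPR-Cas9 editing of the 61R version of that locus in mice labelled C57BL/6, and founders were crossed back to the 61R line, so the 61Q/Q cells are edited knock-in cells too. Each culture was established from an embryo collected at mid-gestation. In both genotypes an adenovirus that expresses Cre recombinase and eGFP from a CMV promoter was added in low serum, which removes the stop cassette, and the cells then spent 6 days in DMEM with 10% FBS before RNA was isolated. No library without Cre was used here, so what the infection itself does is shared by both genotypes and was not measured. Sex-linked transcripts placed 2 male cultures and 1 female culture in each genotype, with 61H/H replicate 2 and 61Q/Q replicate 1 female. Test results rest on the spread between cultures of separate embryos, 3 per genotype. That spread was estimated over all 12 libraries, which also include the genotypes 61R/R and 61P/P.

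NRAS is a small GTPase that relays signals from growth factor receptors. Bound to GTP it recruits RAF kinases, which activate MEK and then ERK, and ERK enters the nucleus and raises immediate early genes, ETS and AP-1 transcription factors and a set of inhibitors that feed back on the pathway. Glutamine 61 takes part in GTP hydrolysis, and substitutions at this codon slow it. Fibroblasts make the collagens, fibronectin and other proteins of connective tissue, respond to PDGF, FGF and TGF-beta, and in culture take on a contractile state with smooth muscle actin.

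The libraries held 81602506, 84255080 and 92179519 counts in 61H/H and 74585225, 85937109 and 86641284 counts in 61Q/Q. Rn45s, the ribosomal RNA precursor, took 11.3% to 13.2% of counts in 61H/H and 8.89% to 11.7% in 61Q/Q. Levels are given in CPM, counts relative to the library total after TMM scaling. In principal components of the 6 libraries, component 1 held 61.8% of the variance, with scores of 50.44, 37.24 and 28.9 for 61H/H and −49.07, −17.87 and −49.63 for 61Q/Q. The genotypes did not overlap on it (exact permutation test, two-sided, p = 0.1, the smallest p that 3 against 3 allows). 61Q/Q replicate 2 stood apart from the other 61Q/Q libraries, in the direction of 61H/H, and results that rest on it are given with and without it. Of 11 fibroblast markers, all were detected in all 6 libraries, and Vim, Prrx1, Twist1, Thy1 and S100a4 were present in both genotypes. Of the 11, 4 were higher and 5 lower in 61H/H, and their summed level, most of it collagen, was 14960, 14750 and 16340 CPM in 61H/H and 30330, 28070 and 37620 CPM in 61Q/Q. In bulk RNA of this kind, fewer cells of a type and less RNA per cell cannot be told apart.

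Between the genotypes, 2013 genes changed, 12.8% of those tested, with an adjusted p under 0.05 and a difference of 1.5-fold or more. In 61H/H, 782 genes (4.96%) were higher and 1231 (7.81%) were lower. The falls were larger than the rises. The median size of a fall was 1.18 on the log2 scale, 768 genes fell at least 2-fold and 205 at least 4-fold. The median rise was 0.94, and 359 genes rose at least 2-fold and 71 at least 4-fold. The genes that fell made up 8.05% of all counts in 61H/H and 19.3% in 61Q/Q, while those that rose made up 3.66% in 61H/H and 1.87% in 61Q/Q. At an adjusted p under 0.05 alone, which is the threshold used for single genes and for members of gene lists below, 28.2% of genes passed, 13.8% higher and 14.5% lower, and at an unadjusted p under 0.05 it was 42.2%. In 47.9% of genes the 3 libraries of one genotype all lay above the 3 of the other, so a lack of overlap was common in these data. The number of changed genes was 1263 without 61H/H replicate 1, and, for 61Q/Q, 1276 without replicate 1, 1110 without replicate 3 and 2616 without replicate 2, and 1067 genes passed whichever of the 6 libraries was left out.

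**Figure D1:**
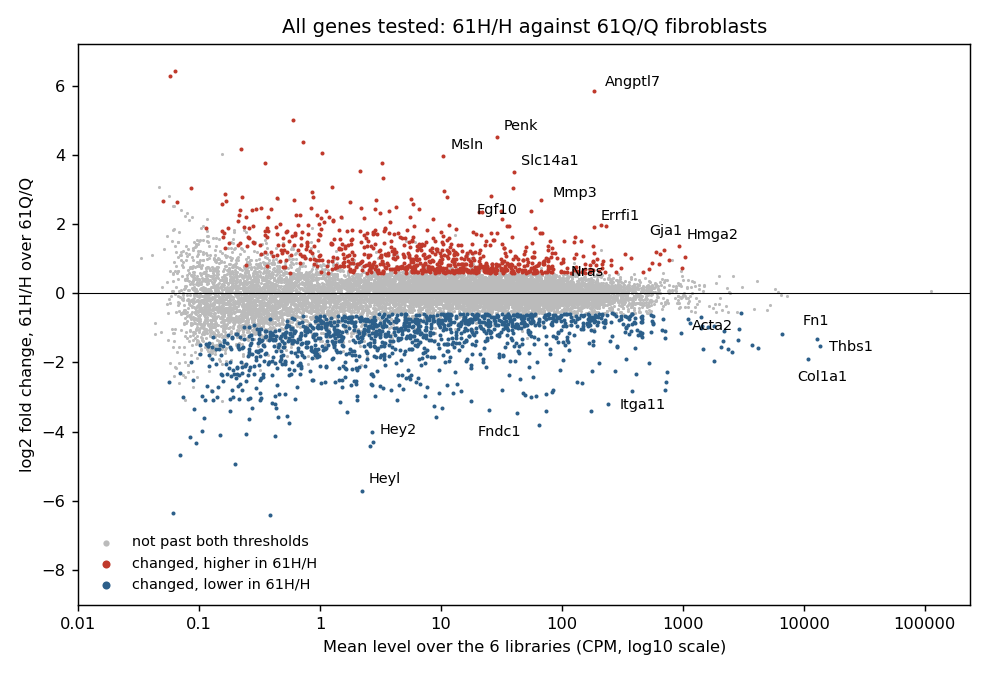
Each point is 1 of the 15759 genes tested. The horizontal axis is the mean level over the 6 libraries in CPM on a log10 scale, the vertical axis is the log2 fold change of 61H/H over 61Q/Q, and colors mark the 782 genes that were higher and the 1231 that were lower in 61H/H. The most abundant changed genes, among them Thbs1, Fn1 and Col1a1, lie below 0.

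The lists of genes named by function below were counted in each direction. Their members were chosen by hand, and a share is read against the 13.8% higher and 14.5% lower of all genes tested, whose median log2 fold change was 0.0083. Lists with most of their members lower in 61H/H were the extracellular matrix, contractile and actin genes, Notch pathway genes and the amino acid response, and lists with most members higher were the ERK feedback inhibitors, glycolysis and hypoxia genes, NRF2 antioxidant genes and genes of DNA replication and mitosis. With single libraries left out, this held throughout for the extracellular matrix, contractile genes and amino acid response. For the others the lowest counts were 5 of 15 Notch genes lower, and 6 of 12 feedback inhibitors, 7 of 28 glycolysis and hypoxia genes, 3 of 11 NRF2 genes and 0 of 40 replication and mitosis genes higher.

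**Figure D2:**
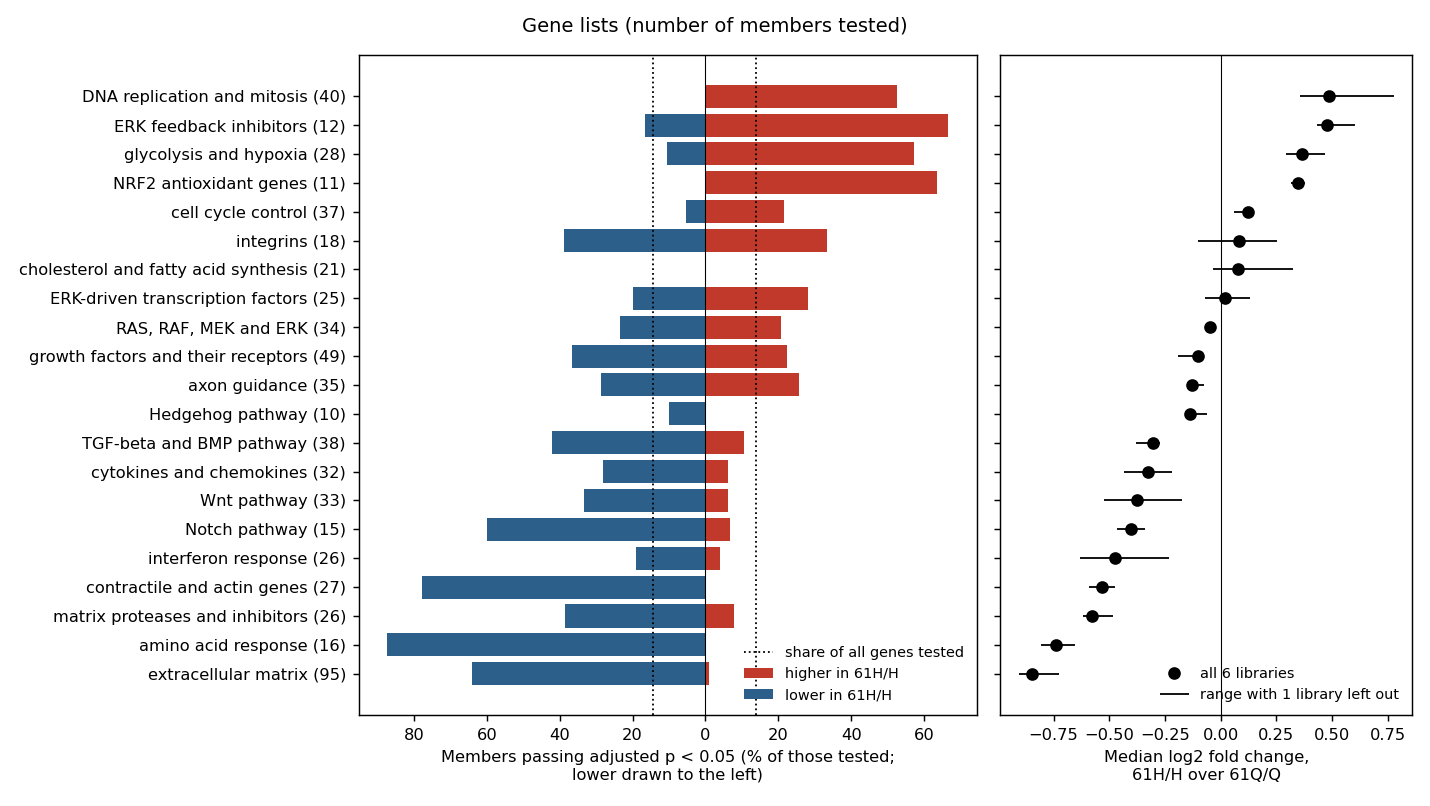
Left, the share of tested members of each gene list that passed an adjusted p under 0.05, higher in 61H/H to the right of 0 and lower to the left, with dotted lines at 13.8% and 14.5%, the shares of all genes tested. Right, the median log2 fold change of 61H/H over 61Q/Q (points) and its range with each library left out in turn (lines). Among these lists, which leave out the cell type markers, the amino acid response and the extracellular matrix have the lowest medians.

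Nras itself, on chromosome 3 (mm10, 103058285 to 103067914, plus strand), was measured at 126, 118 and 117 CPM in 61H/H and at 96.6, 105 and 95 CPM in 61Q/Q. All 61H/H libraries were above all 61Q/Q libraries, by 0.29 ± 0.08 on the log2 scale (SE, n = 3 each, adjusted p = 0.0235 by edgeR's quasi-likelihood test). Its adjusted p was 0.0858 without 61H/H replicate 1, 0.0546 without 61H/H replicate 2, and, for 61Q/Q, 0.0788 without replicate 1 and 0.0891 without replicate 3. The counts do not separate the alleles, so they do not check the codon that a cell carries. Hras, which encodes a closely related RAS protein, averaged 53.9 ± 3.76 CPM in 61H/H and 56.1 ± 2.62 CPM in 61Q/Q (SD, n = 3 each, adjusted p = 0.462). Per kilobase of exon, Nras stood at 26.9 CPM in 61H/H and 22.1 CPM in 61Q/Q, and Hras at 23.7 CPM in 61H/H and 24.7 CPM in 61Q/Q, so the genes were at similar levels in either genotype. Of the genes within 5 Mb of Nras, 14 of 85 changed (16.5%, 5 higher and 9 lower), beside 12.8% of all genes. Of 9 genes listed as neighbors of Nras, 2 were lower in 61H/H (22.2%, beside 14.5% of all genes) and 0 higher. The falls were 0 without 61H/H replicate 1 or 2 or 61Q/Q replicate 1 or 3. Bcas2, a neighbor of Nras, averaged 38.5 ± 1.65 CPM in 61H/H and 35.4 ± 1.75 CPM in 61Q/Q (adjusted p = 0.111).

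Of 34 genes that encode RAS proteins, their regulators and the kinases below them, 7 were higher and 8 lower in 61H/H, with a median log2 fold change of −0.05. The count of rises was 2 without 61H/H replicate 1 or 2 or 61Q/Q replicate 1 or 3 and 3 without 61H/H replicate 3, and the count of falls was 5 without 61H/H replicate 1 or 3 or 61Q/Q replicate 1 and 3 when 61Q/Q replicate 3 was left out. Rasgrp1, a guanine nucleotide exchange factor of RAS, had the largest change of the list. It was at 0.352, 0.487 and 0.42 CPM in 61H/H and 2.56, 0.974 and 1.96 CPM in 61Q/Q, a fall by 2.12 on the log2 scale (SE 0.34, adjusted p = 0.0043). Mras, a RAS relative that helps to activate RAF, averaged 31.1 ± 2.6 CPM in 61H/H and 45.6 ± 5.16 CPM in 61Q/Q (adjusted p = 0.00563). Braf, the RAF kinase that signals most strongly to MEK, was at 55.2, 53.3 and 56 CPM in 61H/H and 85.7, 71.2 and 78.1 CPM in 61Q/Q (adjusted p = 0.00509). Every 61H/H library lay below every 61Q/Q library for these genes, and each passed without any single library. Shc1, an adaptor between receptors and RAS, averaged 294 ± 13.4 CPM in 61H/H and 220 ± 3.59 CPM in 61Q/Q (adjusted p = 0.0043), and Rasa2, a GTPase-activating protein that turns RAS off, 54.1 ± 3.47 and 42.8 ± 1.02 CPM (adjusted p = 0.00781). Neither rise depended on a single library. Araf and Map2k1, which encodes MEK1, did not pass, with 41.6 ± 1.04 and 101 ± 5.04 CPM in 61H/H and 43.9 ± 2.88 and 103 ± 4.25 CPM in 61Q/Q.

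Inhibitors that ERK signaling induces were mostly higher in 61H/H, yet Dusp4 and Spry1 were lower. Of 12 measured members, 8 rose and 2 fell (median 0.48). Without 61Q/Q replicate 2, 10 rose. Dusp6, a phosphatase that removes the activating phosphates of ERK (chromosome 10, 99263231 to 99267489), was at 98.5, 102 and 99.6 CPM in 61H/H and 43.4, 58.3 and 44.9 CPM in 61Q/Q, a log2 fold change of 1.03 ± 0.19 (SE, adjusted p = 0.00509). Spry2 was at 109, 95.4 and 103 CPM in 61H/H and 45.1, 63 and 46 CPM in 61Q/Q (0.99 ± 0.16, adjusted p = 0.0043). Spry4 was at 78.2, 84.5 and 76 CPM in 61H/H and 32.2, 49.8 and 34.2 CPM in 61Q/Q (1.04 ± 0.19, adjusted p = 0.00471). In all 3 genes, 61Q/Q replicate 2 was the highest 61Q/Q library and stayed below 61H/H. Sprouty proteins block the step from receptor to RAS. Errfi1, which encodes the EGF receptor inhibitor MIG6, rose most of the list, with 328, 294 and 244 CPM in 61H/H and 57, 125 and 49.7 CPM in 61Q/Q (1.90 ± 0.33, adjusted p = 0.0046). Dusp7 (0.39) and Spred1 (0.42), which anchors neurofibromin to the membrane, rose less.

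Spry1 went the other way from Spry2 and Spry4, with 15.2, 17.4 and 23.9 CPM in 61H/H and 46.9, 43.9 and 63.9 CPM in 61Q/Q, a fall by 1.45 on the log2 scale (SE 0.27, adjusted p = 0.00542). Dusp4, a nuclear phosphatase of ERK and other MAP kinases, was at 21.9, 26.1 and 27.2 CPM in 61H/H and 46.8, 41.4 and 50.4 CPM in 61Q/Q, and fell by 0.88 (SE 0.16, adjusted p = 0.00504). All of the calls given so far for this list held without any single library. Spred2 and Spred3 rose by 0.39 and 0.54, and their adjusted p was 0.052 and 0.0625 without 61Q/Q replicate 1, with Spred3 also at 0.0522 without 61H/H replicate 2 and 0.0609 without 61Q/Q replicate 3. Dusp5 and Dusp9 did not pass, with log2 fold changes of 0.54 and 0.33 (adjusted p = 0.0517 and 0.266).

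Among 25 transcription factors known as targets of ERK, 7 rose and 5 fell (median 0.018). The median was −0.07 without 61H/H replicate 1. Without 61Q/Q replicate 2 the count of rises was 7, it was 4 without 61H/H replicate 1 or 2, and it was 3 without 61H/H replicate 3 or 61Q/Q replicate 1 or 3, while the falls were 2 without 61H/H replicate 1 or 61Q/Q replicate 3 and 3 without 61H/H replicate 2 or 3 or 61Q/Q replicate 1. Etv1, an ETS factor that ERK activates (chromosome 12, 38780258 to 38868215), was at 25.1, 25.5 and 27.9 CPM in 61H/H and 8.55, 11.2 and 9.48 CPM in 61Q/Q (1.43 ± 0.20, adjusted p = 0.0043). Its relative Etv5 averaged 80.3 ± 1.59 CPM in 61H/H and 46 ± 4.42 CPM in 61Q/Q (0.80 ± 0.13, adjusted p = 0.0043). Etv4 rose by 0.84, with an adjusted p of 0.0288 that was 0.0571 to 0.105 without 61H/H replicate 1, 2 or 3 or 61Q/Q replicate 1 or 3. Of the AP-1 genes, Fosb averaged 9.29 ± 1.13 CPM in 61H/H and 3.77 ± 1.5 CPM in 61Q/Q (adjusted p = 0.00878). Fosl1 (0.86) and Jun (0.74) rose as well, with adjusted p values of 0.0514 to 0.0823 without 61H/H replicate 3 or 61Q/Q replicate 1 or 3 and, for Jun, also without 61H/H replicate 1 or 2. Junb was the AP-1 gene that fell, by 0.34 to 0.43 on the log2 scale with a library left out. Its adjusted p was 0.0578 without 61Q/Q replicate 3. Egr2 fell to 1.86, 1.55 and 2.26 CPM in 61H/H, against 12.1, 10.7 and 11.9 CPM in 61Q/Q (adjusted p = 0.011), and no library was needed for this call. Egr1, another early growth response gene, and Myc did not pass. Egr1 averaged 75.5 ± 6.66 CPM in 61H/H and 80.6 ± 10.2 CPM in 61Q/Q, and Myc 75.9 ± 4.08 and 64.7 ± 9.07 CPM.

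**Figure D3:**
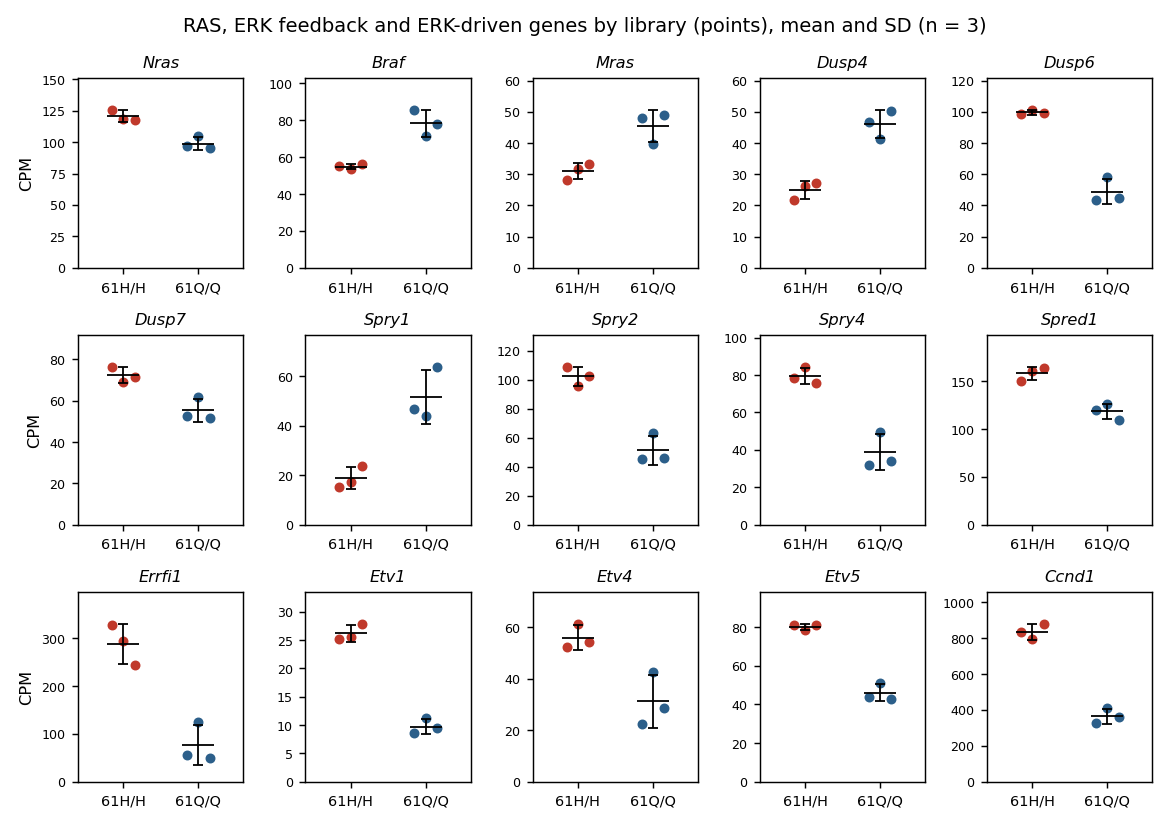
Level in CPM of 15 genes of the RAS and ERK pathway in each library (points), with 61H/H on the left and 61Q/Q on the right of each panel and the mean with its SD (n = 3) in black; every axis starts at 0. Dusp6, Spry2, Spry4, Errfi1 and Etv1 are higher in all 61H/H libraries, while Dusp4, Spry1, Braf and Mras are lower.

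Growth factors and their receptors changed in both directions, 11 of 49 higher and 18 lower in 61H/H (median −0.10). The rises were 7 without 61H/H replicate 3 and 6 without 61Q/Q replicate 3, and the falls were 11 without 61H/H replicate 1 or 2 and 9 without 61Q/Q replicate 3. The receptors for PDGF, which drives fibroblast migration and division, moved in opposite directions. Pdgfrb was at 140, 142 and 163 CPM in 61H/H and 445, 352 and 484 CPM in 61Q/Q, and fell by 1.52 (SE 0.24, adjusted p = 0.0043). Pdgfra was at 189, 179 and 238 CPM in 61H/H and 64, 128 and 93 CPM in 61Q/Q (1.09 ± 0.26, adjusted p = 0.0125, and 0.0509 without 61Q/Q replicate 3). Per kilobase, Pdgfra and Pdgfrb were at about the same level in 61H/H (30.0 and 27.4 CPM), whereas in 61Q/Q Pdgfrb was well above Pdgfra (78.9 and 14.1 CPM). The ligand gene Pdgfc was lower, at 99 ± 4.75 CPM in 61H/H and 167 ± 11.2 CPM in 61Q/Q.

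In the EGF family of ligands, 3 of 7 genes rose and 1 fell. Areg, amphiregulin, averaged 3.75 ± 0.697 CPM in 61H/H and 0.819 ± 0.4 CPM in 61Q/Q (2.19 ± 0.45, adjusted p = 0.00692), and Tgfa 2.21 ± 0.357 and 0.828 ± 0.197 CPM (1.42 ± 0.28, adjusted p = 0.00627). Nrg1, a ligand of the related ERBB3 and ERBB4 receptors, was lower, at 10.5 ± 1.1 CPM in 61H/H and 22.2 ± 3.63 CPM in 61Q/Q (adjusted p = 0.00463). Hbegf, the most abundant ligand of the family per kilobase, did not pass (45.5 CPM per kilobase in 61H/H and 52.8 in 61Q/Q). Fgf10, the mesenchymal ligand of epithelial FGF receptors, was at 126, 71.2 and 82.8 CPM in 61H/H and 21.1, 19.2 and 13.1 CPM in 61Q/Q, a 5.23-fold rise (2.39 ± 0.29, adjusted p = 0.0043). Fgf5 rose 3.66-fold, and Fgf9 fell to 0.352, 0.521 and 0.609 CPM in 61H/H, against 2.73, 3.25 and 3.29 CPM in 61Q/Q (adjusted p = 0.00542). Kitl, which encodes stem cell factor, was at 47.7, 58 and 69.1 CPM in 61H/H and 16.3, 26.1 and 14.1 CPM in 61Q/Q (1.63 ± 0.27, adjusted p = 0.0043). Of 10 genes for insulin-like growth factors, their receptors and binding proteins, 5 were lower and 2 higher. Igf1 averaged 9.47 ± 2.36 CPM in 61H/H and 32.3 ± 10.9 CPM in 61Q/Q (adjusted p = 0.0073). The binding protein Igfbp2 was at 9.84, 32.8 and 47.3 CPM in 61H/H and 396, 191 and 365 CPM in 61Q/Q, a 10.6-fold fall (adjusted p = 0.00573), and Igfbp4 was higher at 235 ± 10.4 CPM in 61H/H and 126 ± 22.2 CPM in 61Q/Q. Except for Pdgfra, the passing growth factor and receptor genes named here held without any single library. The counts did not all hold. With a library left out, 2 or 3 EGF family ligands rose, and 1 or 2 IGF binding proteins rose and 2 or 3 fell.

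The genes with the largest rises were chosen for their size. Angptl7, a secreted angiopoietin-like protein (chromosome 4, 148495280 to 148500462, minus strand), was at 511, 309 and 268 CPM in 61H/H and 1.59, 16.7 and 0.642 CPM in 61Q/Q, a 57.2-fold rise with a wide error (5.84 ± 1.16 on the log2 scale, adjusted p = 0.00628). Its 61Q/Q mean rested on replicate 2, without which the log2 fold change was 8.36. Slc14a1, a urea transporter, was at 111, 56.3 and 52.2 CPM in 61H/H and 3.55, 13.2 and 2.56 CPM in 61Q/Q, and Nptx1, a neuronal pentraxin, at 60.6, 80.9 and 67.2 CPM in 61H/H and 4.1, 16.2 and 5.1 CPM in 61Q/Q. Again 61Q/Q replicate 2 was the highest 61Q/Q library, and it stayed far below 61H/H. Ace, angiotensin-converting enzyme, was at 4.85, 3.53 and 3.45 CPM in 61H/H and 0.253, 0.56 and 0.201 CPM in 61Q/Q, and Agtr2, the type 2 receptor, at 64.8, 31.8 and 40.2 CPM in 61H/H and 4, 11.3 and 3.97 CPM in 61Q/Q. Without 61Q/Q replicate 2 the log2 fold change was 4.59 for Slc14a1, 3.92 for Nptx1, 4.11 for Ace and 3.52 for Agtr2, against 3.50, 3.04, 3.53 and 2.82 with all libraries. Penk, the enkephalin precursor, rose 22.9-fold, Msln, which encodes mesothelin, 15.5-fold, Pls1, an actin-bundling plastin, 13.6-fold, and Enpp2, which encodes autotaxin, 5.94-fold. The log2 fold change of Penk, 4.52 with all libraries, was 3.71 without 61H/H replicate 1 and 5.17 without 61Q/Q replicate 2. The others of the 20 largest rises were Akr1c18, Ptpn22, Scara5, Igsf11, Gchfr, Bmp2, Dhh, Mmp3, Atg9b, Mdga2 and Kctd12b, and each of the 20 passed without any single library.

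Among the most abundant genes that rose, Hmga2, a chromatin protein of embryonic cells, was at 1439, 1301 and 1279 CPM in 61H/H and 433, 731 and 408 CPM in 61Q/Q (1.35 ± 0.22, adjusted p = 0.0043). Gja1, the gap junction protein connexin 43, averaged 982 ± 145 CPM in 61H/H and 410 ± 105 CPM in 61Q/Q, and Emp1, a membrane protein, 1408 ± 236 and 684 ± 109 CPM. Gjb2, connexin 26, was lower instead, at 2.42, 1.9 and 1.32 CPM in 61H/H and 21.9, 17.3 and 16.6 CPM in 61Q/Q (adjusted p = 0.0186, and 0.0528 to 0.0618 without 61H/H replicate 1, 2 or 3 or 61Q/Q replicate 1). S100a6 and S100a4, calcium-binding proteins, rose 1.65-fold and 1.79-fold, and Slc5a3, a myo-inositol transporter, 2.18-fold. All of these rises passed without any single library. H19, an imprinted non-coding RNA, averaged 1018 ± 66.4 CPM in 61H/H and 523 ± 118 CPM in 61Q/Q, with an adjusted p of 0.0495 that was 0.0912 to 0.159 without 61H/H replicate 1, 2 or 3 or 61Q/Q replicate 1 or 3.

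The largest falls included Notch targets, matrix genes and signaling ligands that return below. Fndc1, a fibronectin-domain protein, was at 6.47, 7.65 and 11.7 CPM in 61H/H and 115, 102 and 145 CPM in 61Q/Q. Acan, the cartilage proteoglycan aggrecan, was at 1.23, 1.46 and 1.5 CPM in 61H/H and 20.7, 12.4 and 17.3 CPM in 61Q/Q, a fall by 3.58 on the log2 scale (SE 0.70, adjusted p = 0.00611). For both genes the highest 61H/H library was several times lower than the lowest 61Q/Q library. Wisp2, a matricellular protein of the CCN family, averaged 12.9 ± 2.8 CPM in 61H/H and 136 ± 41.9 CPM in 61Q/Q (10.6-fold, adjusted p = 0.00466). Rgs4, which turns off G protein signals, averaged 4.33 ± 1.02 CPM in 61H/H and 45.3 ± 24.1 CPM in 61Q/Q, and Cmah, the enzyme that makes N-glycolylneuraminic acid, 0.311 ± 0.147 and 5.05 ± 0.853 CPM. Pkp1, a desmosomal plakophilin, fell 21.2-fold, and Ntrk3, the receptor of neurotrophin-3, 8.47-fold (adjusted p = 0.0131, and 0.0534 without 61H/H replicate 2 and 0.052 without 61Q/Q replicate 3). Eln, tropoelastin, was at 7.41, 4.24 and 9.46 CPM in 61H/H and 109, 19.2 and 106 CPM in 61Q/Q. Its adjusted p of 0.017 was 0.053 to 0.0646 without 61H/H replicate 1 or 2 or 61Q/Q replicate 1 or 3. The others of the 20 largest falls were Heyl, Hey2, Nkain3, Igfbp2, Gjb2, Wnt2b, Itga11, Chodl, Parm1, Vstm2b, Tgfb2 and Sla.

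Most genes of the extracellular matrix were lower in 61H/H. Of 95 measured, 61 fell (64.2%, beside 14.5% of all genes) and 1 rose, with a median log2 fold change of −0.845, and between 50 and 67 fell with any single library left out. The fibrillar collagens, which form the fibers of connective tissue, fell in 8 of 10 genes (median −1.49). Col1a1 (chromosome 11, 94936270 to 94951856) was at 4119, 4360 and 5078 CPM in 61H/H and 16160, 14020 and 20730 CPM in 61Q/Q, a 3.76-fold fall (log2 fold change −1.91, SE 0.32, adjusted p = 0.0043). Col1a2, whose chain joins that of Col1a1 in type I collagen, fell less, at 4066 ± 383 CPM in 61H/H and 9253 ± 1595 CPM in 61Q/Q (2.28-fold). Per kilobase, Col1a1 was at 962 CPM in 61H/H and 3613 in 61Q/Q, and Col1a2 at 790.5 and 1799, so the ratio of the 2 transcripts was nearer to 1 in 61H/H. Col3a1 fell 2.58-fold, Col5a1 3.26-fold and Col5a2 3.06-fold. Col2a1 and Col24a1 did not pass, and their libraries overlapped between the genotypes.

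Other collagens fell in 12 of 14 genes (median −1.11). Col12a1 was at 1874, 1794 and 2163 CPM in 61H/H and 5340, 4996 and 5995 CPM in 61Q/Q (2.80-fold, adjusted p = 0.00486), and Col8a2 fell 6.24-fold. Col4a1 of basement membranes averaged 1411 ± 303 CPM in 61H/H and 2990 ± 434 CPM in 61Q/Q. The enzymes and chaperones that process collagen fell in 10 of 13 genes (median −0.65). Serpinh1, the collagen chaperone HSP47, was at 834, 947 and 1037 CPM in 61H/H and 1770, 1793 and 2092 CPM in 61Q/Q (2.01-fold, adjusted p = 0.0043), and Adamts2, which trims the procollagen ends, fell 2.33-fold. Plod1 and Plod3, lysyl hydroxylases, fell 1.43-fold and 1.66-fold. Loxl2, which cross-links collagen, was at 169, 268 and 327 CPM in 61H/H and 1211, 937 and 1515 CPM in 61Q/Q (4.80-fold, adjusted p = 0.0043), and Lox averaged 1042 ± 105 CPM in 61H/H and 3088 ± 539 CPM in 61Q/Q. All of these genes passed without any single library, and none of their groups overlapped.

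Adhesive and matricellular proteins fell in 11 of 19 genes whichever library was left out. Fn1, fibronectin, was at 6561, 7717 and 7694 CPM in 61H/H and 18360, 15200 and 21680 CPM in 61Q/Q (2.51-fold, adjusted p = 0.00486). Thbs1, thrombospondin 1, was at 6971, 6944 and 7237 CPM in 61H/H and 24870, 14390 and 21040 CPM in 61Q/Q (2.85-fold, adjusted p = 0.00557). Wisp2, given above with the largest falls, belongs to this class too. Postn, periostin, was at 157, 165 and 216 CPM in 61H/H and 1072, 1172 and 1523 CPM in 61Q/Q (7.01-fold, adjusted p = 0.0043). The 61Q/Q levels of Thbs1 were spread the most, and those of 61H/H were nearly identical. Tnc, tenascin C, fell 3.00-fold, Ctgf, a CCN protein induced by TGF-beta, 3.07-fold, and Thbs2 3.01-fold. Spp1, osteopontin, and Vcan, versican, did not pass, at 2448 ± 228 and 371 ± 6.2 CPM in 61H/H and 2384 ± 386 and 342 ± 83.5 CPM in 61Q/Q. The rise was Tnxb, tenascin X, 1.55-fold (adjusted p = 0.0369, and 0.0817 to 0.128 without 61H/H replicate 1 or 3 or any 61Q/Q replicate).

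Laminins, nidogens and perlecan fell in 7 of 10 genes, elastic fiber genes and lysyl oxidases in 9 of 20, and small leucine-rich proteoglycans in 4 of 9. Hspg2, perlecan, averaged 1906 ± 114 CPM in 61H/H and 2775 ± 256 CPM in 61Q/Q (adjusted p = 0.0078), and Fbn1, fibrillin 1, 1229 ± 62.6 and 2393 ± 195 CPM (adjusted p = 0.00728). Dcn, decorin, did not pass, with 15.1 ± 2.23 CPM in 61H/H and 13.5 ± 2.84 CPM in 61Q/Q. The count of falling proteoglycans was 2 without 61Q/Q replicate 3.

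Matrix proteases and their inhibitors fell in 10 of 26 genes and rose in 2 (median −0.58). The falls were 5 without 61H/H replicate 1 or 2 or 61Q/Q replicate 3 and 6 when 61Q/Q replicate 1 was left out. The rises were the stromelysin gene Mmp3 and Plau, urokinase, and both passed without any single library. Mmp3 (chromosome 9, 7445822 to 7455974, plus strand) was at 114, 139 and 97.5 CPM in 61H/H and 11.6, 31.7 and 11.2 CPM in 61Q/Q, a 6.42-fold rise (2.68 ± 0.45 on the log2 scale, and 3.36 without 61Q/Q replicate 2, adjusted p = 0.0043). Plau averaged 236 ± 48.7 CPM in 61H/H and 125 ± 19.4 CPM in 61Q/Q. Mmp14, a membrane-bound collagenase, was lower at 351 ± 13.2 CPM in 61H/H and 560 ± 47.4 CPM in 61Q/Q (adjusted p = 0.0043). Adamts12 fell 4.61-fold.

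Mmp3 is a known target of AP-1, and the 250 bases before its start in RefSeq (GRCm38.p6, chr9:7445572-7445821, plus strand) are shown because it was the metalloproteinase that rose, with the letters of the AP-1 motif TGANTCA in capitals, 46 bases before the start.
Mmp3: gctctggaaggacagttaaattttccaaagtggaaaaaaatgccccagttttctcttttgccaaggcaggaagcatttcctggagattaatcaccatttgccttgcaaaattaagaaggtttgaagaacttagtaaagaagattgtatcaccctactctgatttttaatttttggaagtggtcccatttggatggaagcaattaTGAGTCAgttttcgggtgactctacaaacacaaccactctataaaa
Searched on both strands, TGANTCA was found in 4 of the 7 metalloproteinase genes of the list with such a window (10 are listed) and in 6.75% of 32851 windows of all genes. The first share counts genes with the motif in any of their windows and the second counts windows. The 4 genes did not share a direction. Mmp13 averaged 9.84 ± 0.643 CPM in 61H/H and 9.9 ± 1.24 CPM in 61Q/Q, Mmp10 7.55 ± 3.05 and 4.45 ± 2.45 CPM, and Mmp12, the macrophage elastase, 1.04 ± 0.479 and 3.79 ± 0.831 CPM, and none of these passed.

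Contractile and actin genes fell in 21 of 27 and rose in none (median −0.53), with 15 to 21 falls when a library was left out. Smooth muscle contractile proteins fell in 12 of 13 (median −1.09). Acta2, smooth muscle actin, was at 1408, 1560 and 1868 CPM in 61H/H and 4784, 3143 and 4506 CPM in 61Q/Q (2.57-fold, adjusted p = 0.00492). Myh11, smooth muscle myosin, was at 10.8, 15.9 and 25.7 CPM in 61H/H and 172, 73.2 and 148 CPM in 61Q/Q (7.52-fold, adjusted p = 0.00437). In both, 61Q/Q replicate 2 was the lowest 61Q/Q library and lay above every 61H/H library. Mylk, which activates smooth muscle myosin, fell 3.43-fold and Cnn1, calponin, 2.92-fold. Des, desmin, was the exception, at 8.87 ± 2.09 CPM in 61H/H and 11.1 ± 4.32 CPM in 61Q/Q. Of the cofactors of SRF that drive this program, Myocd, myocardin, fell 3.62-fold at a low level (adjusted p = 0.0131, and 0.0554 without 61H/H replicate 1), while Mkl1 and Mkl2 did not pass, with log2 fold changes of 0.10 and −0.06. Markers of smooth muscle and pericytes, a list that shares Myh11 and Cnn1 with this one, summed to 275 to 383 CPM in 61H/H and 657 to 1006 CPM in 61Q/Q.

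Integrins, the receptors of these matrix proteins, went in both directions among the alpha chains and among the beta chains. Of 18 genes, 6 were higher and 7 lower (median 0.08, and −0.10 without 61Q/Q replicate 1), and the rises were 3 without 61H/H replicate 1 or 2 or 61Q/Q replicate 1 or 3. Itga11, a receptor of fibrillar collagen, was at 41.2, 36.6 and 65.4 CPM in 61H/H and 591, 174 and 542 CPM in 61Q/Q (9.12-fold lower, adjusted p = 0.00463). Itga1, a collagen receptor chain, fell 2.79-fold and Itga5, the fibronectin receptor chain, averaged 435 ± 31.1 CPM in 61H/H and 910 ± 70.1 CPM in 61Q/Q (adjusted p = 0.00914). The laminin receptor chain Itga6 was higher, at 243, 183 and 151 CPM in 61H/H and 58.5, 75.2 and 52.3 CPM in 61Q/Q (3.10-fold, adjusted p = 0.0043). Itga2, which binds collagen, rose 4.38-fold and so differed in direction from Itga11 and Itga1. These calls held without any single library. Itgb1, the beta chain they share, fell 1.44-fold (adjusted p = 0.0243, and 0.0623 to 0.0917 without 61H/H replicate 1 or 2 or 61Q/Q replicate 1 or 3). Itgav and Itgb3 did not pass.

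**Figure D4:**
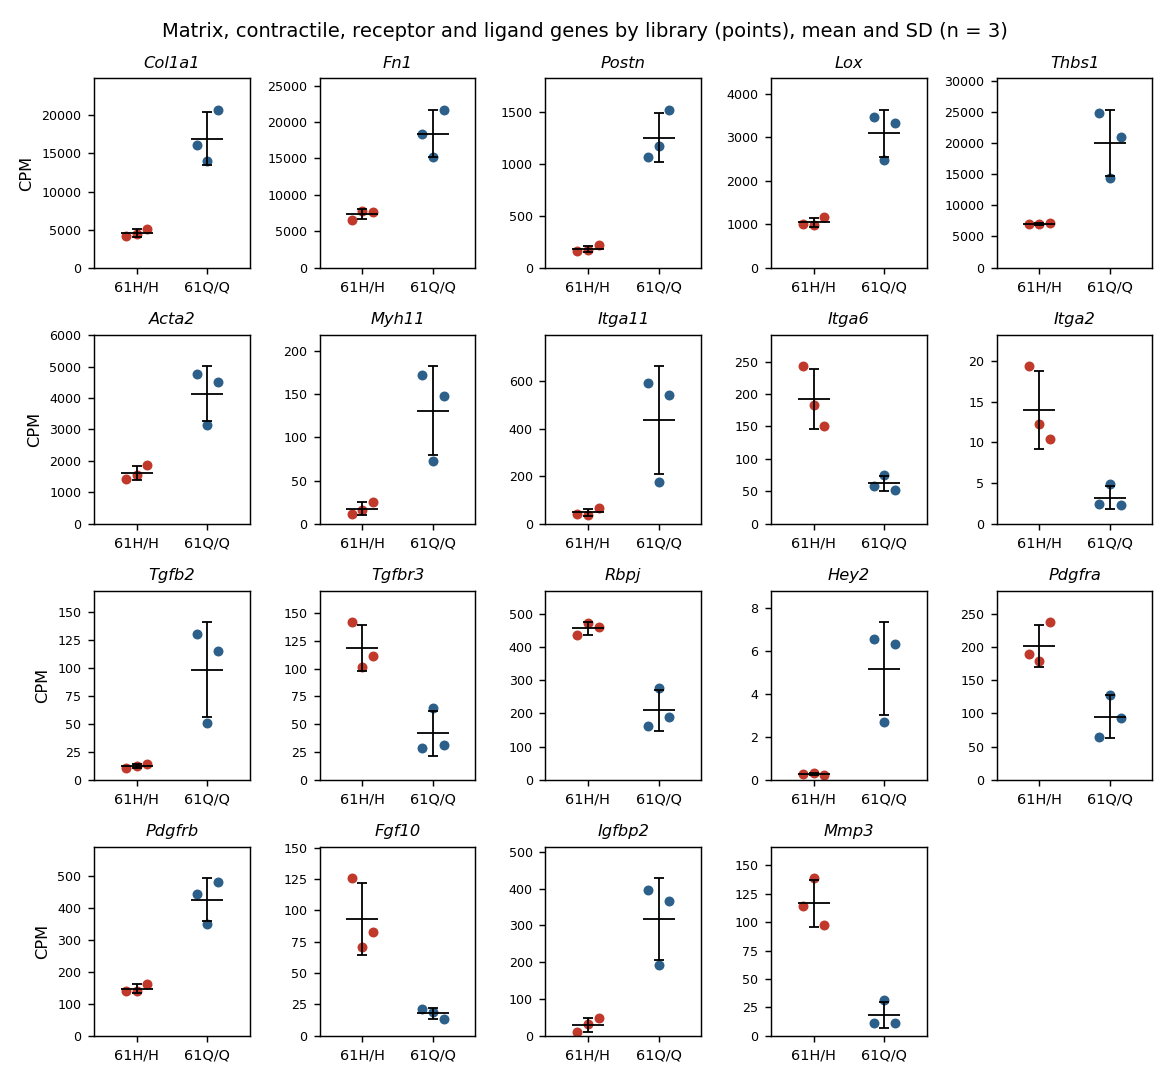
Level in CPM of matrix, contractile, integrin, ligand and receptor genes in each library (points). In each panel 61H/H is on the left and 61Q/Q on the right, with the mean and its SD (n = 3) in black. Every axis starts at 0. Itga6, Itga2, Tgfbr3, Rbpj, Pdgfra, Fgf10 and Mmp3 are higher in 61H/H, and the other genes shown are lower.

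In the Notch pathway, a cell-to-cell signal in which a ligand on one cell releases the receptor's intracellular part in the next, 9 of 15 genes fell and 1 rose (median −0.40). The falls were 5 without 61H/H replicate 2 or 61Q/Q replicate 3. The ligand Jag1 was at 28.4, 38.5 and 48.1 CPM in 61H/H and 244, 159 and 278 CPM in 61Q/Q (5.92-fold, adjusted p = 0.00437). The genes that Notch induces fell in 4 of 5. Heyl was at 0.0235, 0.0695 and 0.147 CPM in 61H/H and 4.38, 2.81 and 5.8 CPM in 61Q/Q (log2 fold change −5.70, and −6.49 without 61H/H replicate 3, adjusted p = 0.00842), and Hey2 at 0.282, 0.301 and 0.21 CPM in 61H/H and 6.55, 2.69 and 6.31 CPM in 61Q/Q (adjusted p = 0.00566). Both are repressors of low abundance, and both were below 1 CPM in every 61H/H library. Hes1 was at 19.2, 18.1 and 21.5 CPM in 61H/H and 39.4, 32.9 and 38.4 CPM in 61Q/Q (1.88-fold, adjusted p = 0.00521). Hey1 fell 5.06-fold (adjusted p = 0.0272, and 0.0709 to 0.0884 without 61H/H replicate 1, 2 or 3 or 61Q/Q replicate 1 or 3), and Nrarp did not pass. Rbpj, the DNA-binding factor of the pathway, was the rise, at 436, 473 and 461 CPM in 61H/H and 161, 278 and 189 CPM in 61Q/Q (2.18-fold, adjusted p = 0.00437), whereas its coactivator Maml2 fell 2.03-fold. The receptors differed less. Notch1 and Notch2 fell 1.32-fold and 1.13-fold with adjusted p values of 0.0233 and 0.0388, and without 61H/H replicate 2 or 3 or 61Q/Q replicate 2 or 3 neither passed (0.056 to 0.102), nor did Notch2 without 61H/H replicate 1 (0.104). Notch3 did not pass.

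In the TGF-beta and BMP pathway, 16 of 38 genes fell and 4 rose (median −0.31), and the rises were 2 without 61H/H replicate 1 or 61Q/Q replicate 1 or 3. Tgfb2 was at 10.7, 12.2 and 14.2 CPM in 61H/H and 130, 50.3 and 115 CPM in 61Q/Q (7.96-fold, adjusted p = 0.0043), and Tgfb3 at 122, 143 and 165 CPM in 61H/H and 573, 420 and 598 CPM in 61Q/Q (3.70-fold, adjusted p = 0.00502). Tgfb1 fell less, at 40.5 ± 1.49 CPM in 61H/H and 57 ± 2.86 CPM in 61Q/Q (1.41-fold, adjusted p = 0.00671). Inhba, the activin A chain, fell 2.37-fold. Bmp2 was higher, at 11.6, 10.6 and 7.41 CPM in 61H/H and 1.18, 2.48 and 0.806 CPM in 61Q/Q (6.60-fold, adjusted p = 0.00451, with a log2 fold change of 2.72 that was 3.32 without 61Q/Q replicate 2), and so was the coreceptor Tgfbr3, betaglycan, at 142, 102 and 111 CPM in 61H/H and 28.8, 64.9 and 31.6 CPM in 61Q/Q (2.83-fold, adjusted p = 0.00636). Each of these passed without any single library. Smad7, an inhibitor induced by TGF-beta, fell 1.38-fold, while Id1, Id2 and Id3, which BMP signaling induces, did not pass. Id1 averaged 39.4 ± 13.8 CPM in 61H/H and 28.7 ± 10.5 CPM in 61Q/Q.

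Wnt pathway genes fell in 11 of 33 and rose in 2 (median −0.38), with 1 rise without 61H/H replicate 1 or 61Q/Q replicate 1 or 3 and 7 falls without 61Q/Q replicate 3. The ligand genes fell in 5 of 8. Wnt4 was at 0.904, 0.788 and 0.881 CPM in 61H/H and 7.05, 3.25 and 6.87 CPM in 61Q/Q (6.66-fold, adjusted p = 0.0043). Wnt2b, not on the list but among the largest falls, was at 1.66, 1.66 and 1.67 CPM in 61H/H and 14.2, 12.7 and 20.7 CPM in 61Q/Q. Wnt5a averaged 120 ± 20.7 CPM in 61H/H and 215 ± 26.1 CPM in 61Q/Q (1.78-fold, adjusted p = 0.0043). The secreted inhibitor Dkk2 was higher, at 381, 360 and 364 CPM in 61H/H and 59.5, 142 and 85.7 CPM in 61Q/Q (3.85-fold, adjusted p = 0.00466), and Dkk3 lower, 1.76-fold. Axin2, a common target of the pathway, did not pass at 1.68 ± 0.518 CPM in 61H/H and 3.14 ± 0.686 CPM in 61Q/Q. In the Hedgehog pathway 1 of 10 genes passed, the coreceptor Cdon, which fell 1.64-fold. Its adjusted p of 0.0315 was 0.0599 to 0.0977 without 61H/H replicate 1, 2 or 3 or 61Q/Q replicate 1 or 3. The ligand gene Dhh, desert hedgehog, not on the list but among the largest rises, rose to 6.05, 4.55 and 4.38 CPM in 61H/H, against 0.774, 1.13 and 0.39 CPM in 61Q/Q (6.50-fold, adjusted p = 0.0043).

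Among cell cycle genes, Ccnd1, cyclin D1, which growth factor signaling induces, was at 833, 794 and 881 CPM in 61H/H and 326, 408 and 364 CPM in 61Q/Q (2.28-fold, adjusted p = 0.00442). Of 37 cell cycle control genes, 8 rose and 2 fell (median 0.12). The rises were 5 without 61H/H replicate 1 or 61Q/Q replicate 3, 4 without 61Q/Q replicate 1 and 14 when 61Q/Q replicate 2 was left out, and the falls were 1 without 61H/H replicate 1 or 61Q/Q replicate 1 or 3 and 5 without 61Q/Q replicate 2. E2f8, a repressor of the E2F family, averaged 46.4 ± 8.46 CPM in 61H/H and 17.2 ± 7.97 CPM in 61Q/Q (adjusted p = 0.00926), and Mdm2 and Ccng1, targets of p53, rose 1.40-fold and 1.24-fold. Gadd45a, another target of p53, fell, by 0.53 to 0.90 on the log2 scale with a library left out. These 4 genes passed without any single library. Of 13 genes for p53 and its targets, 4 rose and 1 fell, with 2 to 5 rises and 1 to 3 falls when a library was left out. The inhibitors Cdkn1a (p21), Cdkn2a and Cdkn2b did not pass, with Cdkn1a at 434 ± 28.4 CPM in 61H/H and 446 ± 60.5 CPM in 61Q/Q, and Cdkn2a at 64.3 ± 3.98 and 49.7 ± 15.7 CPM.

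Genes of DNA replication and mitosis depended on 61Q/Q replicate 2. With all libraries, 21 of 40 were higher in 61H/H and none lower, whereas 40 of 40 were higher without 61Q/Q replicate 2. Without 61H/H replicate 1, 2 or 3 it was 1, 2 or 6 of 40, and without 61Q/Q replicate 1 or 3 it was 0. The median of the list, taken as log2 CPM minus the 61Q/Q mean, was 0.59, 0.53 and 0.49 in 61H/H and −0.25, 0.49 and −0.24 in 61Q/Q, so that 61Q/Q replicate 2 lay at the level of 61H/H. Birc5, survivin, was at 30.6, 27.9 and 28 CPM in 61H/H and 14.2, 26 and 13.4 CPM in 61Q/Q, and Mki67 at 332, 301 and 312 CPM in 61H/H and 184, 352 and 184 CPM in 61Q/Q. The same library was the highest of all 6 for Mki67. The adjusted p of Birc5 was 0.0264, and 0.0535 to 0.101 without 61H/H replicate 1, 2 or 3 or 61Q/Q replicate 1 or 3, and that of Mki67 was 0.161.

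Genes of cholesterol and fatty acid synthesis moved with that library too. None of 21 passed with all libraries, and 10 were higher in 61H/H without 61Q/Q replicate 2. Fasn, fatty acid synthase, was at 574, 546 and 517 CPM in 61H/H and 453, 632 and 487 CPM in 61Q/Q. Here 61Q/Q replicate 2 was the highest of the 6 libraries and the genotypes overlapped.

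**Figure D5:**
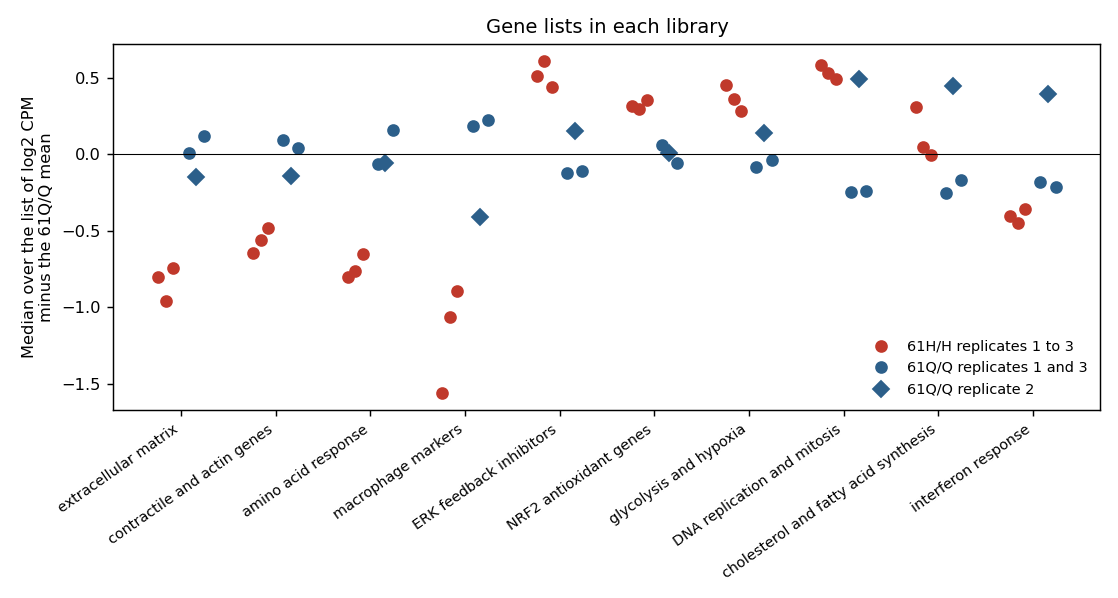
Median over each gene list of the log2 CPM of a library minus the mean of the 61Q/Q libraries, for 61H/H (red) and 61Q/Q (blue), with 61Q/Q replicate 2 as a diamond. The libraries of the genotypes stay apart for the extracellular matrix, contractile genes, amino acid response, macrophage markers, ERK feedback inhibitors, NRF2 genes and glycolysis, while 61Q/Q replicate 2 lies at 0.49 among the 61H/H libraries for DNA replication and mitosis and above them for sterol and interferon genes.

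Genes of glycolysis and the hypoxia response were higher in 61H/H in 16 of 28, with 3 lower (median 0.36). The rises were 8 without 61H/H replicate 1 or 61Q/Q replicate 1, 10 without 61H/H replicate 2 and 7 without 61Q/Q replicate 3. Ldha, lactate dehydrogenase A, was at 924, 782 and 743 CPM in 61H/H and 516, 618 and 504 CPM in 61Q/Q (1.49-fold, adjusted p = 0.0102), and Tpi1 at 390, 344 and 312 CPM in 61H/H and 213, 271 and 226 CPM in 61Q/Q (1.47-fold, adjusted p = 0.00997). Pdk1, which keeps pyruvate out of mitochondria, rose 1.65-fold. The hypoxia genes were split. Adm, adrenomedullin, rose 2.18-fold and Bnip3 1.76-fold, whereas Vegfa, the vascular growth factor, fell to 59.1, 58.8 and 48.7 CPM in 61H/H, against 96.3, 89.8 and 91.2 CPM in 61Q/Q (1.66-fold, adjusted p = 0.00466). All of these held without any single library, and Hif1a did not pass. NRF2 antioxidant genes rose in 7 of 11 (median 0.35), with 4 without 61Q/Q replicate 1 and 3 when 61Q/Q replicate 3 was left out. Nqo1, a quinone reductase, averaged 19.4 ± 1.81 CPM in 61H/H and 11.9 ± 0.98 CPM in 61Q/Q (1.64-fold, adjusted p = 0.00612), and G6pdx, which feeds the pentose phosphate pathway, 72.5 ± 6.64 and 45.8 ± 4.87 CPM (1.58-fold, adjusted p = 0.0043). Txnrd1 and Hmox1, which the same factor induces, did not pass.

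The amino acid response, in which the factor ATF4 raises genes for amino acid synthesis and transport under nutrient or endoplasmic reticulum stress, was lower in 61H/H in 14 of 16 genes (median −0.74), and 12 to 14 were lower with any single library left out. Promoters are shown for 3 of its members, with the composite site that ATF4 and C/EBP factors bind, searched as TGATGNAA on both strands, in capitals (RefSeq, GRCm38.p6, 250 bases before the start of the transcript). The windows are chr2:119350992-119351241 on the plus strand for Chac1, chr6:7693210-7693459 on the minus strand for Asns and chr3:50443614-50443863 on the minus strand for Slc7a11.
Chac1: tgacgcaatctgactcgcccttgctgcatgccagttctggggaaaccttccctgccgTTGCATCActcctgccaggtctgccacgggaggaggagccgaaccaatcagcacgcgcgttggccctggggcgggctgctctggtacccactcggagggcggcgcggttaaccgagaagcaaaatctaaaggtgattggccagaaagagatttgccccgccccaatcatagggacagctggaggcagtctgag
Asns: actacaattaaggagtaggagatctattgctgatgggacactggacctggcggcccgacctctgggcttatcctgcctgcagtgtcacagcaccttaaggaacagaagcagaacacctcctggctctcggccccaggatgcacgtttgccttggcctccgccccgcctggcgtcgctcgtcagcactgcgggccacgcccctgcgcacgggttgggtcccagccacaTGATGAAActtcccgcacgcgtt
Slc7a11: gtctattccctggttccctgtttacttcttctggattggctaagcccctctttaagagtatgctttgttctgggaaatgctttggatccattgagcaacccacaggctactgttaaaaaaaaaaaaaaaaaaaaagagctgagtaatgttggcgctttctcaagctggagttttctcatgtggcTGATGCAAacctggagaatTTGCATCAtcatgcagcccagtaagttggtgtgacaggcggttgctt
The motif lies 193 bases before the start in Chac1, 23 bases before it in Asns, and 66 and 47 bases before it in Slc7a11. It was found in 5 of the 15 genes of the list with a window, the others being Pycr1 and Vldlr, and in 3.45% of 32851 windows of all genes. A gene with more than 1 window was counted if any of them held the motif, so a share of genes stands beside a share of windows.

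Chac1, which degrades glutathione, was at 6.22, 7.02 and 7.32 CPM in 61H/H and 16.1, 17.9 and 20.6 CPM in 61Q/Q (2.65-fold, log2 fold change −1.41, SE 0.18, adjusted p = 0.0043). Asns, asparagine synthetase, was at 72.1, 75.6 and 81.9 CPM in 61H/H and 129, 119 and 142 CPM in 61Q/Q (1.70-fold, adjusted p = 0.0043), and Slc7a11, the cystine transporter, at 6.24, 6.99 and 8.44 CPM in 61H/H and 16.6, 19.3 and 22.4 CPM in 61Q/Q (2.69-fold, adjusted p = 0.0043). The spread within each genotype was small beside the difference, and 61Q/Q replicate 2 lay with the other 61Q/Q libraries. Genes without the motif in the window fell as well. Trib3, a pseudokinase induced by stress, fell 3.87-fold, Ddit3, the factor CHOP, 2.25-fold, and Mthfd2, a mitochondrial folate enzyme, 1.96-fold. Atf4 itself averaged 124 ± 2.85 CPM in 61H/H and 166 ± 6.69 CPM in 61Q/Q (1.34-fold, adjusted p = 0.0043). All of these passed without any single library. The serine synthesis genes Phgdh and Psat1 were the 2 that did not pass, with Phgdh at 261 ± 12.4 CPM in 61H/H and 226 ± 14.7 CPM in 61Q/Q.

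Cytokine, chemokine and complement genes fell in 9 of 32 and rose in 2 (median −0.33), and the falls were 3 without 61H/H replicate 1 or 61Q/Q replicate 1 and 2 without 61H/H replicate 2 or 61Q/Q replicate 3, while the rises were 0 or 1 without any library but 61Q/Q replicate 2, without which they were 4. Cxcl14 was at 20.5, 16.7 and 23.9 CPM in 61H/H and 75.7, 44.1 and 57.4 CPM in 61Q/Q (2.89-fold, adjusted p = 0.0043), and Tnfrsf11b, osteoprotegerin, at 11.8, 21.4 and 26.1 CPM in 61H/H and 101, 68.1 and 92.3 CPM in 61Q/Q (4.40-fold, adjusted p = 0.0043). Both held without any single library. Interferon response genes fell in 5 of 26 and rose in 1, with falls of 1 to 3 and rises of 0 to 2 when any library was left out, so few of them passed. Isg15 was at 2.49, 1.66 and 2.08 CPM in 61H/H and 3.49, 9.18 and 3.26 CPM in 61Q/Q, with 61Q/Q replicate 2 the highest, and did not pass (adjusted p = 0.0825).

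Macrophage markers were lower in 61H/H, which bears on the cytokine, complement and Mmp12 values. Their summed level was 143, 212 and 222 CPM in 61H/H and 398, 273 and 405 CPM in 61Q/Q (exact permutation test, two-sided, p = 0.1, the smallest possible), and 9 of 16 fell (median −1.17). That count was 1 without 61H/H replicate 1, 3 without 61H/H replicate 2, 6 without 61H/H replicate 3, 2 without 61Q/Q replicate 1 or 3 and 11 without 61Q/Q replicate 2. No marker of the list was at 0 in any library. C1qa, a complement subunit made by macrophages, averaged 6.5 ± 2.15 CPM in 61H/H and 19 ± 4.88 CPM in 61Q/Q, and passed without any single library. Csf1r, the receptor that defines the lineage, averaged 15.3 ± 3.35 CPM in 61H/H and 36.9 ± 7.95 CPM in 61Q/Q, with an adjusted p of 0.0325 that was 0.059 to 0.113 without 61H/H replicate 1, 2 or 3 or 61Q/Q replicate 1 or 3. The part of these cells in the results was not tested. Mesothelium markers summed to 67.8 ± 20.5 CPM in 61H/H and 21.9 ± 3.02 CPM in 61Q/Q, through Msln and Krt19 (2.92-fold). Of 9 tested, 2 were higher and 1 lower. The fall was Upk1b, at 0.282, 0.579 and 1.028 CPM in 61H/H and 1.901, 0.889 and 2.115 CPM in 61Q/Q. With a library left out, Upk1b passed only without 61H/H replicate 3 or 61Q/Q replicate 2. The defining markers Upk3b and Lrrn4 were below 0.4 CPM in every library and Wt1 below 1 CPM. Of 7 endothelial markers tested, 2 were higher and 0 lower, with 1 to 3 higher when a library was left out. Tek was at 5.33, 4.04 and 3.83 CPM in 61H/H and 0.831, 1.485 and 1.423 CPM in 61Q/Q, and passed without any single library. Pecam1 was at 0.321 ± 0.0618 CPM in 61H/H and 0.343 ± 0.0773 CPM in 61Q/Q. Summed levels of the other marker lists are given as the mean of 61H/H and then of 61Q/Q. They were lower in 61H/H for skeletal muscle (48.2 and 108.5 CPM) and for neurons and glia (24.2 and 48.8 CPM). Those of chondrocytes (70.6 and 123 CPM) and epithelium (10.6 and 32.05 CPM) were lower too. Few tested members fell, in that order 1 of 5, 1 of 6, 2 of 6 and 2 of 6. The skeletal muscle sum was mostly Acta1, and Myod1, Myog, Myf5 and Myh3 had too few counts to be tested. Epithelium sums came mostly from Dsp. They overlapped between the genotypes, with 61H/H replicate 3 at 14.03 CPM and 61Q/Q replicate 2 at 13.82 CPM. Their exact two-sided permutation test gave p = 0.2. Means were 16.9 and 12.2 CPM for endothelium and 21.9 and 25.1 CPM for adipocytes. They were 11.4 and 9.6 CPM for melanocytes and 0.746 and 1.14 CPM for blood.

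Genes of axon guidance, which also position mesenchymal cells, rose in 9 of 35 and fell in 10 (median −0.13), and the rises were 6 without 61H/H replicate 1 or 61Q/Q replicate 1 and 4 when 61Q/Q replicate 3 was left out. Semaphorins, secreted or membrane repellents, supplied most rises. Sema6d averaged 26.7 ± 2.62 CPM in 61H/H and 11.7 ± 3.6 CPM in 61Q/Q (2.27-fold, adjusted p = 0.00876), and Sema4b 42 ± 6.08 and 21.1 ± 3.54 CPM (1.99-fold, adjusted p = 0.00725). The neuropilins, coreceptors of class 3 semaphorins, fell. Nrp1 was at 282, 279 and 280 CPM in 61H/H and 539, 487 and 483 CPM in 61Q/Q (1.79-fold, adjusted p = 0.00811), and Nrp2 at 91.8, 126 and 125 CPM in 61H/H and 211, 193 and 222 CPM in 61Q/Q (1.82-fold, adjusted p = 0.0043). The Eph receptors Epha3 and Epha4 fell 3.39-fold and 3.28-fold, while the ligand gene Efna5 averaged 87 ± 5.42 CPM in 61H/H and 57 ± 4.38 CPM in 61Q/Q (1.53-fold, adjusted p = 0.0043). These calls held without any single library.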

How the data were processed

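Per the labels and the study's methods, the authors depleted ribosomal RNA with Ribo-Zero, prepared TruSeq stranded libraries and made the gene counts with featureCounts from STAR alignments to mm10, with Picard 2.17.11 also named in the submitters' processing notes. The strand setting of the counting was not given in the sources used here, so reads of overlapping and antisense genes may be mixed. The deposited values used were raw counts, and a table of normalized counts was not used. Of the symbols, 25 had been turned into dates (0.2323% of counts). They stayed in the totals and tests.

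Counts of all 12 libraries were fitted in 1 quasi-likelihood model, each genotype with its own mean (R 4.3.3, edgeR 4.0.16, filterByExpr by genotype, TMM scaling), and 61H/H minus 61Q/Q was tested with Benjamini-Hochberg adjustment over 15759 genes. The biological coefficient of variation was 15.7%. Changed means an adjusted p under 0.05 and at least 1.5-fold, and single genes and list members are called by the adjusted p alone. Exact permutation tests over the 6 libraries cannot go below p = 0.1. Principal components used log2 CPM with a prior count of 2. The fit was also run on simulated data with 200 changed genes. These were far fewer than changed in the data, and no library was made to stand apart. That run is therefore no measure of the error rates here. All 748 list entries matched a symbol, 6 of them through an older one.

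The lists and the comparison were chosen with earlier results of these data known. Genes were named as members of the RAS, ERK and feedback lists, as the 20 largest rises and 20 largest falls by fold (a mean of at least 1 CPM, no overlap, no predicted genes or pseudogenes), as the 8 largest rises and 8 largest falls in CPM, and from each list role as up to 4 members with the smallest p and up to 2 abundant ones that did not pass. Alternatives were RLE and upper quartile scaling, other filters, DESeq2 1.42.0, limma-voom (limma 3.58.1), a fit of only the 6 libraries, a replicate block, the sex of the embryo, no Rn45s, a test against 1.5-fold and leaving out each library. Results for a few genes are not reported here.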

Additional observations from a re-analysis of the deposited data

How the results depend on the processing

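The 2013 changed genes became 4451 (2170 higher, 2281 lower) with no minimum change, 248 (87 higher, 161 lower) in a test against a 1.5-fold change, and 1355 (551 higher, 804 lower) when at least 1 CPM was required in all 12 libraries. DESeq2 gave 2287, limma-voom 2031, only the 6 libraries 2073, no filter 1975, upper quartile scaling 2013, RLE size factors 2015, sex as a covariate 2016 and no Rn45s 2010. With 1 library left out, the count ran from 1110 to 2616, the rises from 409 to 1172 and the falls from 701 to 1444. Members of gene lists with an adjusted p under 0.05, 353 with all libraries, ran from 203 to 408 and were 53 in the test against 1.5-fold. The log2 fold change of Nras was 0.29 in that test (adjusted p = 1.0) and 0.26 to 0.33 with a library left out.

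Same-numbered cultures were not treated as paired. Their correlations after subtracting genotype means were −0.08, −0.04 and 0.18, and those of other-numbered cultures ran from −0.11 to 0.14. With 3 cultures per genotype, these values cannot decide whether the cultures were paired. With the replicate number as a block, 2085 genes changed (830 higher, 1255 lower). No named gene that passed reversed direction. Among those that did not pass, some changed sign when a library was left out, such as Egr1, Id2 and Id3. Of 459 named genes, 300 passed, 195 of them whichever library was left out. The median log2 fold change of all genes was 0.0083 with TMM scaling, 0.0011 with RLE size factors and 0.0129 with upper quartile scaling.

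Limits: with 3 cultures per genotype, leaving out 1 library leaves 2 in its genotype, and the counts then moved in either direction. Why 61Q/Q replicate 2 stood apart was not tested. The adenoviral infection, the allele of the reads and the cell composition were not measured. Falls in genes below 1 CPM rest on few counts.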

Other observations

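The gene groups below were picked after their values were seen, so their counts are descriptions. Of 37 Hox genes tested, 6 were higher in 61H/H and 7 lower, shares near the 13.8% and 14.5% of all genes. The rises were Hoxd11, Hoxd12, Hoxd13, Hoxa11 and Hoxa13, and Hoxa7, and the falls were Hoxb2, Hoxb4, Hoxb9, Hoxb13, Hoxc11, Hoxc13 and Hoxd4. No Hox gene was lower without 61H/H replicate 2 or 61Q/Q replicate 1 or 3, and 3 to 7 were higher with a library left out, 3 of them without 61Q/Q replicate 3, and Hoxd11, Hoxd12 and Hoxa11 passed whichever library was left out. Hoxd12 was at 15.5, 11.3 and 6.63 CPM in 61H/H and 3.66, 5.32 and 2.9 CPM in 61Q/Q (2.81-fold, adjusted p = 0.00674 by edgeR's quasi-likelihood test). Tbx4, a factor of the hindlimb, was at 27.3, 17.7 and 15.2 CPM in 61H/H and 7.7, 9.23 and 5.78 CPM in 61Q/Q (2.65-fold, adjusted p = 0.0046), and Tbx5, its counterpart of the forelimb, did not pass at 6 ± 2.06 CPM in 61H/H and 5.16 ± 1.15 CPM in 61Q/Q. En1, a factor of ventral limb ectoderm and of dermis, fell to 3.99, 5.13 and 5.74 CPM in 61H/H, against 12.3, 13.7 and 15.3 CPM in 61Q/Q (2.78-fold, adjusted p = 0.0043). Which parts of the embryos went into each culture was not given in the sources used here, and its part in these values was not tested.

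Cytosolic aminoacyl-tRNA synthetases, which charge tRNAs, fell in 11 of 20 genes and rose in 1, Kars, and 10 or 11 fell whichever library was left out. Aars was at 212, 218 and 224 CPM in 61H/H and 334, 317 and 382 CPM in 61Q/Q (1.58-fold, adjusted p = 0.0043), and Nars, Sars and Tars fell 1.46-fold, 1.45-fold and 1.38-fold. Kars averaged 136 ± 0.672 CPM in 61H/H and 111 ± 14.1 CPM in 61Q/Q, with an adjusted p of 0.0263 that was 0.0601 to 0.0957 without 61H/H replicate 1, 2 or 3 or 61Q/Q replicate 1 or 3. Qars did not pass.

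Nnt, the mitochondrial transhydrogenase in which C57BL/6 substrains are known to differ, was at 111, 108 and 103 CPM in 61H/H and 42.9, 50.4 and 42.4 CPM in 61Q/Q (2.38-fold, adjusted p = 0.0043). Wdfy1 was at 75.8, 81 and 87 CPM in 61H/H and 33, 41.6 and 32.8 CPM in 61Q/Q (2.27-fold, adjusted p = 0.0043). For both, the genotypes were far apart beside the spread of their cultures, and 61Q/Q replicate 2 lay near the other 61Q/Q libraries. The study's methods give C57BL/6J as the background of the parental line, the labels give C57BL/6 for both genotypes, and the part of the background in these values was not tested. Among imprinted transcripts, Kcnq1ot1 fell 2.41-fold, Zdbf2 2.33-fold and Meg3 1.72-fold, each without dependence on a single library, and Igf2, at 1174, 1190 and 1145 CPM in 61H/H and 632, 1103 and 528 CPM in 61Q/Q, did not pass.

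Replication-dependent histone genes of the Hist1 cluster were higher in 17 of 47, in 43 without 61Q/Q replicate 2, in 5 without 61H/H replicate 3, in 1 without 61H/H replicate 1 or 2 and in 0 without 61Q/Q replicate 1 or 3. Cytosolic ribosomal protein genes were higher in 24 of 78, in 25 without 61Q/Q replicate 2, in 5 without 61H/H replicate 3, in 2 without 61H/H replicate 2 and in 1 without 61H/H replicate 1 or 61Q/Q replicate 1 or 3.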
